A study of Homo sapiens with 4 samples.

Results

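The nuclear-encoded subunits of the respiratory chain and of ATP synthase were followed in 22Rv1 and PC3 prostate cancer cells with and without morusin. They were taken by gene symbol from the gene table: the NDUFA, NDUFB, NDUFC, NDUFS and NDUFV genes, SDHA to SDHD, the UQCR genes with CYC1, COX4I1 to COX8A, and the ATP5F1, ATP5M and ATP5P genes. Of 138 table rows with such a symbol, 53 were pseudogenes or other rows not annotated as protein-coding and were left out. This gave 85 genes of 60617: 37 of complex I, 4 of complex II, 9 of complex III, 17 of complex IV and 18 of complex V. NDUFA4 was counted with complex IV, where its protein resides, and COX7A2L, which joins complexes III and IV into supercomplexes, was kept with complex IV because its symbol falls in the range.

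The respiratory chain sits in the inner mitochondrial membrane. Complexes I and II pass electrons from NADH and succinate to ubiquinone, complex III passes them on to cytochrome c and complex IV to oxygen, and complex V uses the proton gradient so built to make ATP. Each complex holds a small catalytic core and many accessory subunits, and all but complex II combine subunits made in the cytosol from nuclear genes with a few made inside the organelle from mitochondrial DNA. Prostate luminal cells are known for an unusual citrate metabolism, and prostate cancers for a greater reliance on mitochondrial oxidation than normal prostate epithelium.

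RNA was sequenced from 4 libraries, 1 for each group: 22Rv1 with 75 µM morusin for 6 h, 22Rv1 without morusin, PC3 with 46 µM morusin for 6 h and PC3 without morusin. Morusin is a prenylated flavone of mulberry root bark. 22Rv1 is a prostate carcinoma line grown here in RPMI, and PC3 is a line from a bone metastasis grown in F12, so dose and medium cannot be told apart from the line. The labels do not say whether untreated cells received the solvent. Values are FPKM, fragments scaled to transcript length and to each library's mapped total, as the authors deposited them.

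The labels were checked against marker genes. KLK4, a prostate kallikrein, was at 429 FPKM in morusin-treated and 288 FPKM in untreated 22Rv1 cells, and at 0 and 0.0173 FPKM in morusin-treated and untreated PC3 cells. It was 1 of 7 prostate luminal markers looked at. KLK3 and TMPRSS2 were low in 22Rv1, at 3.80 and 5.99 FPKM in untreated cells. HOXB13 alone was higher in PC3, at 100 and 175 FPKM in morusin-treated and untreated cells, against 67.0 and 86.5 FPKM in 22Rv1. The epithelial markers EPCAM, KRT8 and KRT18 summed to 235 to 281 FPKM in the 4 libraries. None of 4 leukocyte and 3 striated muscle markers reached 1 FPKM in any library, and CKM was listed at 0 in all 4. Of 3 endothelial markers, VWF and CDH5 were listed at 0 in all 4 libraries and PECAM1 was at 1.02 FPKM in morusin-treated and 1.07 FPKM in untreated PC3. Of 4 fibroblast markers, 1 reached 1 FPKM, COL1A1, at 1.29 FPKM in morusin-treated and 3.01 FPKM in untreated PC3. The steps between low FPKM values gave a rough depth of 19.1 and 23.45 M read pairs (M, mega) for morusin-treated and untreated 22Rv1, and of 28.65 and 40.55 M for morusin-treated and untreated PC3. At these depths the error from counting alone on a subunit's log2 change had a median of 0.058 in 22Rv1 and 0.057 in PC3, with a highest value of 0.162 in 22Rv1 and 0.175 in PC3, over 79 subunits each. COX7B2, at 1.29 and 1.06 FPKM in morusin-treated and untreated PC3, is not among these and had a counting error of 0.42 there. Of the 85 subunits, 50 have a pseudogene named after them and 46 share exon bases with another gene, 34 of them on the opposite strand, and their values are uncertain where reads were split or strand was not used. Errors from culture, extraction and library making are not covered by it, and with 1 library a group they cannot be measured within a line.

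Subunit genes were among the well expressed genes of both lines before any treatment. Of the 85, 79 reached 1 FPKM in both untreated libraries. Their median level was 62.1 FPKM in untreated 22Rv1 and 41.6 FPKM in untreated PC3, where COX7B2 is counted too. The sum over the 85 was 6902 FPKM in untreated 22Rv1, 1.94% of that library's FPKM, and 4884 FPKM or 1.46% in untreated PC3. The highest levels per length were those of ATP5F1B, the catalytic beta subunit of ATP synthase, with 729 FPKM in untreated 22Rv1 and 373 FPKM in untreated PC3. COX6A1, the widespread form of a small complex IV subunit, followed in 22Rv1 with 389 FPKM, and was next in PC3 too with 250 FPKM. ATP5MF, a small membrane subunit of ATP synthase, stood at 350 FPKM in untreated 22Rv1 and 92.1 FPKM in untreated PC3. ATP5F1A, the alpha subunit that alternates with beta in the catalytic head, stood at 285 and 137 FPKM in untreated 22Rv1 and PC3. COX4I1, which binds the regulatory nucleotides of complex IV, stood at 243 and 195 FPKM in the same libraries.

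Untreated 22Rv1 held more of most subunit mRNAs than untreated PC3. The log2 ratio of untreated 22Rv1 over untreated PC3 had a median of 0.43 over 80 subunits, and 63 of 80 were higher in 22Rv1 (78.8%), against 53.9% of all genes. At least 2-fold higher in 22Rv1 were 13 of 80, or 16.2% of the subunits and 19.8% of all genes, and at least 2-fold higher in PC3 were 3 of 80, or 3.75% against 19.2%. The median ratio was 0.90 for complex V, 0.73 for complex III, 0.43 for complex I, 0.31 for complex IV and 0.10 for complex II. NDUFB9, an accessory subunit of complex I encoded on chromosome 8, went the other way, with 49.9 FPKM in untreated 22Rv1 and 143 FPKM in untreated PC3. The media of the lines differed, so line and medium cannot be told apart. Across 79 subunits the log2 levels of the untreated libraries had Pearson r 0.83 and Spearman rho 0.83, a description across genes that share each library's depth and gene lengths.

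Isoforms known from particular tissues were listed at or near 0. COX4I2, the lung form of subunit IV, COX6A2 and COX7A1, the muscle forms of VIa and VIIa, were listed at 0 in all 4 libraries. COX6B2, the testis form of VIb, was at most 0.0601 FPKM, and ATP5MGL was at most 0.0251 FPKM. COX7B2, a relative of COX7B, was at 1.29 FPKM in morusin-treated and 1.06 FPKM in untreated PC3, and was listed at 0 in both 22Rv1 libraries. These 6 account for the subunits not tested in 22Rv1, and all but COX7B2 for the 5 not tested in PC3. The 3 genes of the proton-carrying c ring, which encode the same mature protein, were used in different proportions. ATP5MC2 made up 64.9% of their summed FPKM in morusin-treated and 64.2% in untreated 22Rv1, and 42.9% in morusin-treated and 41.8% in untreated PC3. ATP5MC3 made up 8.34% and 8.78% in morusin-treated and untreated 22Rv1, and 31.9% and 29.6% in morusin-treated and untreated PC3. ATP5MC1 made up the rest, between 25.2% and 28.6%. The shares of ATP5MC2 and ATP5MC3 differed more between the lines than between morusin-treated and untreated cells, a description of sizes with no test.

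**Figure D1:**
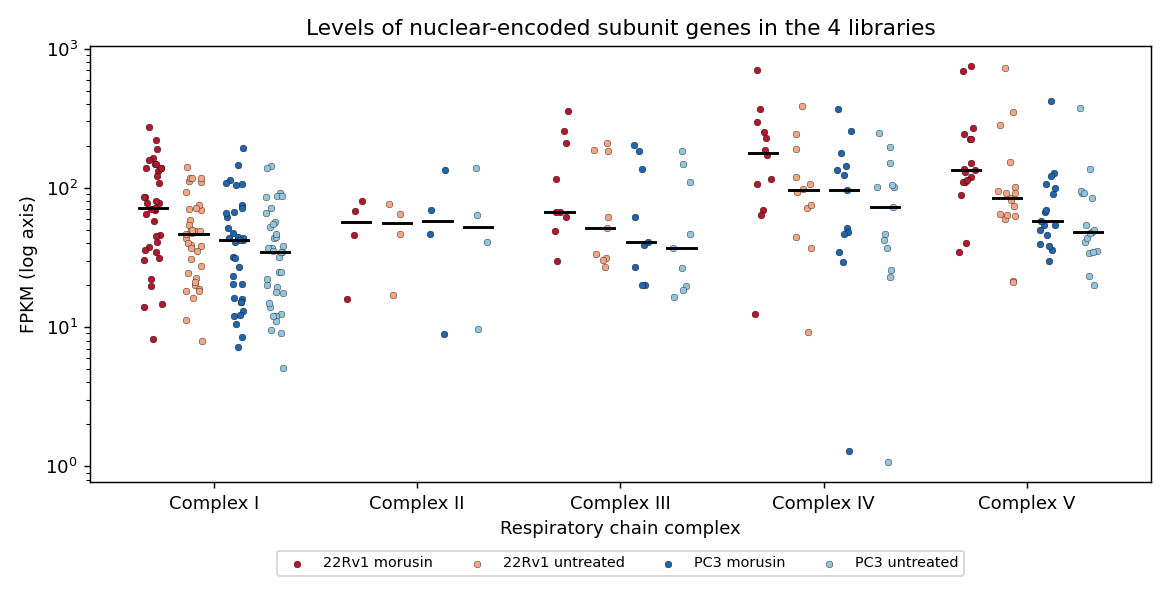
Level of each nuclear-encoded subunit gene that reached 1 FPKM in a line, in FPKM on a log axis, by complex and library (22Rv1 with morusin, 22Rv1 untreated, PC3 with morusin, PC3 untreated). Points are genes and black lines are medians over genes. Complex I had a median of 71.8 FPKM in morusin-treated and 46.7 FPKM in untreated 22Rv1, while complex II had 57.0 and 55.8 FPKM.

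With morusin, most subunit mRNAs were higher in 22Rv1, by amounts that varied with the complex, the role of the subunit and the length of its transcript. The change is given as log2 of FPKM + 1 with morusin over FPKM + 1 without, for genes of at least 1 FPKM in a library of the line. Of 79 subunits, 72 lay above 0 (91.1%), against 49.4% of the 13361 genes measured in that line. Their median change was 0.69, with a middle range of 0.42 to 0.90, and the median over all genes was -0.01. At least 2-fold higher were 10 of 79 (12.7%), against 3.48% of all genes, and none of the 79 was at least 2-fold lower, against 1.02%. All 10 had a median transcript length under 1000 bases. Under 600 bases, 4 of 21 subunits were at least 2-fold higher, a smaller share than the 51 of 185 protein-coding genes of that length. From 600 up to 1000 bases, 6 of 33 subunits were, a larger share than the 68 of 854 protein-coding genes. The 85 subunits summed to 10843 FPKM with morusin and 6902 FPKM without, a ratio of 1.57, and to 2.65% of all FPKM with morusin and 1.94% without. All FPKM together summed to 1.15 times the untreated sum. Short transcripts in general were higher with morusin in 22Rv1: the 21 measured subunits under 600 bases had a median change of 0.83, and all 185 measured protein-coding genes under 600 bases had 0.81. The values relative to length are given further on and are smaller. Fewer cells and less RNA per cell cannot be told apart in such libraries.

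The highest change in 22Rv1 was that of NDUFA7, an accessory subunit of the complex I arm that faces the matrix (chr19:8308768-8321396, minus strand). It had 138 FPKM with morusin and 53.8 FPKM without, a log2 change of 1.34 with a counting error of 0.064. ATP5MK, a small membrane subunit of ATP synthase that holds its dimers, had 226 FPKM with morusin and 91.95 FPKM without, a change of 1.29. COX6B1, which faces the intermembrane space in complex IV, had 254 FPKM with morusin and 106 FPKM without, a change of 1.25. NDUFA13, also known as GRIM-19, had 133 FPKM with morusin and 58.5 FPKM without, a change of 1.17. All 4 were more than 2-fold higher in the morusin library. UQCR10, NDUFA2, NDUFA3, ATP5ME, ATP5MF and NDUFA1 make up the 10, with changes of 1.09 to 1.16. Each is a small accessory or membrane subunit. The annotated gene AC011448.1 shares exon bases with NDUFA13 and had 58.1 FPKM with morusin and 31.7 FPKM without. NDUFA7 shares 456 exon bases with AC010323.1, at 3.36 and 5.57 FPKM with and without morusin. It shares 89 with RPS28 on the opposite strand, at 206 and 107 FPKM. ATP5ME shares 579 with MYL5 on the opposite strand, at 25.3 and 10.4 FPKM. ATP5MK, NDUFA1, NDUFA2, NDUFA3 and ATP5MF overlap other genes too. The labels do not say whether counting used strand or split shared reads, an uncertainty that counting errors leave out.

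At the low end, 7 of 79 subunits lay below 0 in 22Rv1 (8.86%), against 50.6% of all genes. NDUFS1, the largest subunit of complex I and carrier of iron-sulfur clusters (chr2:206114817-206159603, minus strand), had 14.5 FPKM with morusin and 21.1 FPKM without, a change of -0.51 with a counting error of 0.070. ATP5F1A had 245 FPKM with morusin and 285 FPKM without, a change of -0.22. NDUFA5 had 41.0 FPKM with morusin and 47.6 FPKM without, a change of -0.21. SDHA, the flavoprotein of complex II that oxidises succinate, had 68.0 FPKM with morusin and 76.3 FPKM without, a change of -0.16. SDHC, ATP5F1B and SDHD were at -0.10, -0.08 and -0.01. Of these 7, 4 are catalytic subunits and 3 belong to complex II.

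The promoters at both ends of this range are shown, since the subunit genes are spread over many chromosomes and are known to share binding motifs of NRF1, of ETS factors such as GABP, of YY1 and of Sp1. Promoters of 68 of the 85 genes matched the RefSeq table on GRCh38.p14, which gives 250 bases before and 50 bases after a start. Printed are 250 bases before and 30 bases after the start, 280 in all, on the gene's strand and 5′ to 3′. Capitals mark the motifs CCGGAAG (ETS), AAGATGGC (YY1) and GGGCGG (Sp1), or their reverse complements. The palindromic NRF1 consensus was searched too and has no exact match in these 4. No motif contains another, but a pair of ETS matches on opposite strands overlaps in ATP5MK. NDUFA7 (chr19:8321346-8321625, minus strand) and ATP5MK (chr10:103396446-103396725, minus strand) had the highest changes in 22Rv1. NDUFS1 (chr2:206159415-206159694, minus strand) and ATP5F1A (chr18:46104198-46104477, minus strand) had the lowest.
NDUFA7: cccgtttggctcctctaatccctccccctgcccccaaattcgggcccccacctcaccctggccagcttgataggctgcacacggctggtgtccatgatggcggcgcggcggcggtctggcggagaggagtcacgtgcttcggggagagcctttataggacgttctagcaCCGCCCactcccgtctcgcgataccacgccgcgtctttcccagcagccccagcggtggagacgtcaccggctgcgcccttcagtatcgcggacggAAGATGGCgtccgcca
ATP5MK: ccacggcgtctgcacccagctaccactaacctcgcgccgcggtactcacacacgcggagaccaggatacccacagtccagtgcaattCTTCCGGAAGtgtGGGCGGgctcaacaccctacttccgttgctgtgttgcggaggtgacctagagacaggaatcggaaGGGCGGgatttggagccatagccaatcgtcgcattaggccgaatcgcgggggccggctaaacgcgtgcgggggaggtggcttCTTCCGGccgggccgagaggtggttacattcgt
NDUFS1: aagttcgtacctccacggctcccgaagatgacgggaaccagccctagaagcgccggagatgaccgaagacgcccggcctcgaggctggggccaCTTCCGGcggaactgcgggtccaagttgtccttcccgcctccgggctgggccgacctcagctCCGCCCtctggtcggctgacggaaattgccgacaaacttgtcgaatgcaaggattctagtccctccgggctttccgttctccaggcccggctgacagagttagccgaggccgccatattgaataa
ATP5F1A: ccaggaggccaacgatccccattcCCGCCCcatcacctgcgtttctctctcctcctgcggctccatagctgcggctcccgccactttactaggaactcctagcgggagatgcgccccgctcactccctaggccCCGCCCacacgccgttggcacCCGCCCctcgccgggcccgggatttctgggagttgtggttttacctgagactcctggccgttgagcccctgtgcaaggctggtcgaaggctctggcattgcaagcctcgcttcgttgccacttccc

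The shared motifs were more frequent in subunit promoters than in promoters at large, and medians of the change with and without a match are given as a description. On either strand of the 300-base windows, the ETS motif was in 20 of 68 subunit promoters (29.4%), against 10.3% of all 35116 promoters of the table. Each subunit entered with 1 promoter, while the 35116 are all entries, not reduced to 1 per gene or to expressed genes. The shares are thus over unlike units. The YY1 motif was in 11 (16.2%), against 2.89%, the NRF1 motif in 4 (5.88%), against 1.24%, and the Sp1 motif in 41 (60.3%), against 45.0%. Subunits with an ETS match had a median change of 0.82 in 22Rv1 and those without one 0.65, and in PC3 the medians were 0.30 and 0.22. Subunits with a YY1 match had a median of 0.48 in 22Rv1 and those without one 0.77. In PC3 the medians with and without a YY1 match were 0.22 and 0.23. With and without an Sp1 match the medians were 0.65 and 0.77 in 22Rv1, and 0.24 and 0.22 in PC3. With and without an NRF1 match they were 0.49 and 0.74 in 22Rv1, and 0.14 and 0.25 in PC3. As printed above, Sp1 matches occur in the 2 promoters with the highest changes and in the 2 with the lowest. A match is a run of letters and was not tested as a site.

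In PC3 most subunits were also higher with morusin, and the changes were smaller. Of 80 subunits, 71 lay above 0 (88.8%), against 44.2% of the 12907 genes measured in PC3. Their median change was 0.23, with a middle range of 0.15 to 0.38, and the median over all genes was -0.05. None was at least 2-fold higher, against 1.24% of all genes, or at least 2-fold lower, against 2.64%. The 85 subunits summed to 5846 FPKM with morusin and 4884 FPKM without, a ratio of 1.20, while all FPKM summed to a ratio of 1.07. They took up 1.63% of FPKM with morusin and 1.46% without.

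The 4 highest changes in PC3 fell on other genes than the 4 highest in 22Rv1, though UQCR10 was also among the 10 at least 2-fold higher in 22Rv1. ATP5F1D, the delta subunit of the ATP synthase rotor, had 36.05 FPKM with morusin and 23.1 FPKM without, a change of 0.62 with a counting error of 0.078. COX6A1 had 369 FPKM with morusin and 250 FPKM without, a change of 0.56. ATP5F1E, the epsilon subunit of the same rotor, had 29.9 FPKM with morusin and 20.0 FPKM without, also a change of 0.56. UQCR10, a small subunit beside cytochrome c1, had 38.6 FPKM with morusin and 26.7 FPKM without, a change of 0.51. All 4 were higher in 22Rv1 too, by 0.83 to 1.16. Below 0 were 9 of 80 subunits (11.2%), against 55.8% of all genes. The lowest was NDUFC2, a membrane-arm subunit of complex I, with 12.2 FPKM with morusin and 24.8 FPKM without. Its change was -0.96, short of 2-fold on the scale with 1 added and past it with 0.1 added. The readthrough gene NDUFC2-KCTD14 shares exon bases with it and had 1.71 FPKM with morusin and 4.61 FPKM without in PC3. NDUFS1 followed with 16.2 FPKM with morusin and 19.4 FPKM without, a change of -0.25.

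Complex I was represented by 7 catalytic and 30 accessory subunits. The catalytic ones carry the flavin and the iron-sulfur clusters and bind NADH and ubiquinone. Their median change was 0.41 in 22Rv1 and 0.25 in PC3, and that of the accessory subunits was 0.76 in 22Rv1 and 0.23 in PC3. NDUFV1, the NADH-binding subunit, had 163 FPKM with morusin and 117 FPKM without in 22Rv1, and 109 and 86.8 FPKM with and without morusin in PC3, for changes of 0.47 and 0.32. NDUFV2, its partner, had changes of 0.41 and 0.06 in 22Rv1 and PC3. NDUFS8, which holds a pair of clusters, had 122 FPKM with morusin and 71.1 FPKM without in 22Rv1, and 71.1 and 55.1 FPKM with and without morusin in PC3, for changes of 0.76 and 0.36. NDUFS7 had changes of 0.48 and 0.42, and NDUFS3 of 0.34 and 0.25 in 22Rv1 and PC3. NDUFS1 was the only one of the 7 below 0, in both lines. Among the accessory subunits, 29 of 30 lay above 0 in 22Rv1 and 25 of 30 in PC3.

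Complex II, the only complex with no mitochondrially encoded subunit, stood near its untreated level. Its 4 subunits summed to 210 FPKM with morusin and 205 FPKM without in 22Rv1, and to 259 and 253 FPKM with and without morusin in PC3. The median change was -0.06 in 22Rv1 and 0.03 in PC3. SDHB, the iron-sulfur subunit, had 79.8 FPKM with morusin and 65.3 FPKM without in 22Rv1, and 69.5 and 64.2 FPKM with and without morusin in PC3, for changes of 0.29 and 0.11. SDHA had 134 FPKM with morusin and 139 FPKM without in PC3, a change of -0.05. SDHD, a membrane anchor, had changes of -0.01 in 22Rv1 and 0.18 in PC3, and SDHC, the other anchor, -0.10 in each. With 4 subunits and 1 library a group, no test sets complex II apart from the other complexes.

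In complex III the small subunits showed higher changes than the large ones. The 5 small accessory subunits had a median change of 0.99 in 22Rv1 and 0.40 in PC3. The 2 large core proteins, UQCRC1 and UQCRC2, relatives of the mitochondrial processing peptidase, had 0.15 and 0.22, and the 2 catalytic subunits 0.29 and 0.07. Median transcript lengths were 645 bases for the small subunits, 1700 for the core proteins and 2357.5 for the catalytic ones. CYC1, cytochrome c1, had 255 FPKM with morusin and 187 FPKM without in 22Rv1, and 202 and 184 FPKM with and without morusin in PC3, for changes of 0.44 and 0.13. UQCRFS1, the Rieske iron-sulfur protein, had 29.7 FPKM with morusin and 26.8 FPKM without in 22Rv1, and 19.9 and 19.8 FPKM with and without morusin in PC3, for changes of 0.14 and 0.01. UQCR10 had 116 FPKM with morusin and 51.3 FPKM without in 22Rv1, a change of 1.16. UQCRH, the hinge protein, was the most abundant of the 9 in 22Rv1, with 359 FPKM with morusin and 209 FPKM without.

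All nuclear subunits of complex IV are non-catalytic, since its metal centres lie in mitochondrially encoded proteins, and all that were measured were higher with morusin as deposited. With the length trend of protein-coding genes subtracted, 3 of 12 in 22Rv1 and 4 of 13 in PC3 lay below 0. The 12 measured in 22Rv1 had changes of 0.39 to 1.25 with a median of 0.75, and the 13 measured in PC3 had changes of 0.15 to 0.56 with a median of 0.35. The PC3 change of COX7B2, 0.15, was smaller than its counting error of 0.42. COX6A1 had 699 FPKM with morusin and 389 FPKM without in 22Rv1, a change of 0.85. COX4I1 had 367 FPKM with morusin and 243 FPKM without in 22Rv1, and 256 and 195 FPKM with and without morusin in PC3, for changes of 0.59 and 0.39. COX6C, a single-helix subunit, had 186 FPKM with morusin and 98.9 FPKM without in 22Rv1, and 178 and 152 FPKM with and without morusin in PC3, for changes of 0.91 and 0.23. COX7A2 had changes of 0.61 and 0.18, and COX7B of 0.90 and 0.33 in 22Rv1 and PC3. COX7A2L had 12.3 FPKM with morusin and 9.15 FPKM without in 22Rv1, and 29.4 and 22.9 FPKM with and without morusin in PC3. Its share of COX7A2 and COX7A2L together was 9.63% with morusin and 10.8% without in 22Rv1, and 38.1% and 35.1% with and without morusin in PC3.

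In complex V the catalytic head and the membrane part differed in size of change in 22Rv1. The 5 measured small membrane subunits summed to 1434 FPKM with morusin and 667 FPKM without in 22Rv1, a ratio of 2.15, with a median change of 1.10. The median transcript length was 673 bases over the 6 membrane subunit genes and 1970.25 bases over the alpha and beta genes. ATP5MF was the most abundant membrane subunit, with 754 FPKM with morusin and 350 FPKM without. The alpha and beta subunits together summed to 933 FPKM with morusin and 1014 FPKM without in 22Rv1, a ratio of 0.920. The c ring genes had a median change of 0.77, the rotor subunits 0.83 and the 4 subunits of the peripheral stalk 0.60 in 22Rv1. ATP5MC2 had 269 FPKM with morusin and 153 FPKM without, ATP5MC1 had 111 and 64.6 FPKM, and ATP5MC3 had 34.6 and 21.0 FPKM with and without morusin in 22Rv1. In PC3 the membrane subunits had a median change of 0.21, the rotor 0.56, the c ring 0.43, the stalk 0.15 and the alpha and beta pair 0.04. ATP5F1A had 129 FPKM with morusin and 137 FPKM without in PC3, and ATP5F1B had 419 FPKM with morusin and 373 FPKM without. Reads of ATP5PF and of GABPA, which lies on the opposite strand and shares 413 exon bases with it, cannot be told apart without strand.

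Over all complexes, the 13 catalytic subunits had a median change of 0.29 in 22Rv1 and the 66 other subunits 0.78. Summed FPKM of the catalytic subunits was 1.09-fold and that of the others 1.75-fold the untreated sum. In PC3 the medians were 0.13 for the catalytic and 0.27 for the 67 other subunits, and the ratios of sums were 1.09 and 1.24. Complex I catalytic subunits did not follow this order in PC3, as given above. Catalytic subunits also have longer transcripts, with a median of 1512 bases against 708.5 bases for the others, so role and length move together here.

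**Figure D2:**
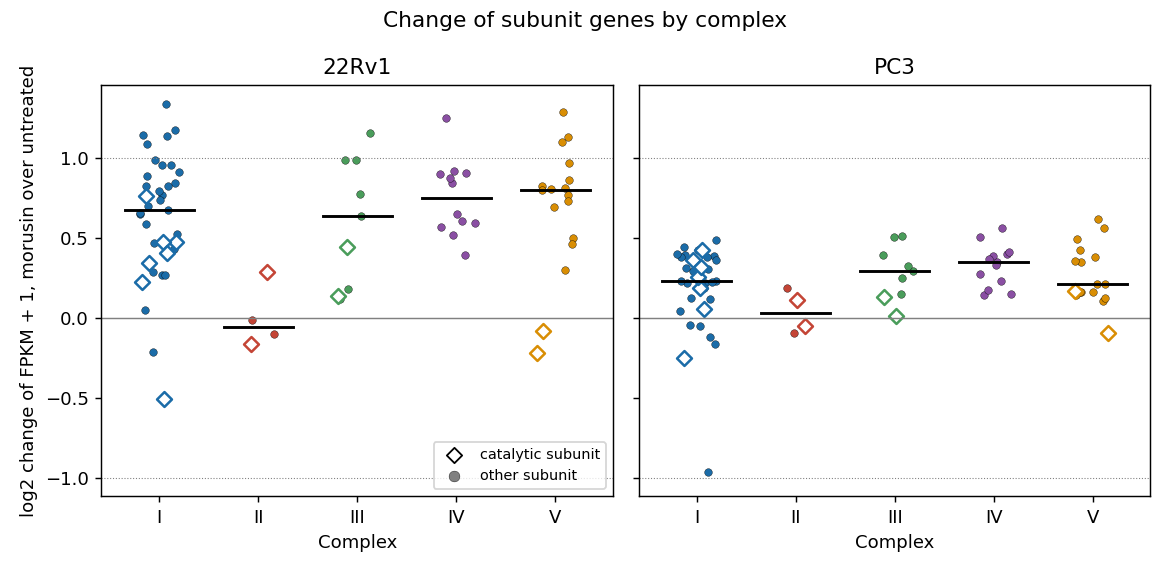
Change of each measured subunit gene, log2 of FPKM + 1 with morusin over untreated, by complex, in 22Rv1 and in PC3. Open diamonds are catalytic subunits, filled circles are other subunits, black lines are medians over genes and dotted lines mark 2-fold. Medians of complexes I, III, IV and V lay between 0.64 and 0.80 in 22Rv1 and between 0.21 and 0.35 in PC3, and those of complex II were -0.06 and 0.03.

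With both lines in 1 model, limma compared morusin-treated with untreated libraries within lines for 13980 genes that reached 1 FPKM in at least 2 of the 4 libraries. No subunit of 80 passed a Benjamini-Hochberg adjusted p of 0.05, and 82 genes did (0.587%), 49 higher and 33 lower with morusin. At an unadjusted limma p below 0.05, 42 of 80 subunits (52.5%) were higher, against 7.75% of all genes, and none was lower, against 10.8%. These counts turned on transcript length and scaling. With the length trend over all genes removed, 19 subunits were higher and none lower, where 832 of all 13926 genes were higher and 1017 lower. With that on coding length, 20 were higher and 1 lower, where 901 of 12148 genes were higher and 1272 lower. With libraries rescaled, 33 were higher and 2 lower, where 722 of 13971 genes were higher and 2850 lower. The length trend of protein-coding genes, described further on, was not removed in this fit. The smallest p-values belonged to UQCR10, COX6A1 and ATP5F1D, named here because of these values. UQCR10 had a shared log2 change of 0.84 with a standard error of 0.21 and a limma adjusted p of 0.129, and was higher with morusin in both lines. COX6A1 had 0.70 with a standard error of 0.18, and ATP5F1D had 0.72 with a standard error of 0.18, each with a limma adjusted p of 0.131 and higher with morusin in both lines. When each library was rescaled to the mean sum of FPKM, 10 of 80 subunits passed: ATP5F1D, ATP5MK, COX6A1, COX6B1, NDUFA13, NDUFA2, NDUFA3, NDUFA7, UQCR10 and UQCRQ. Under that scaling 300 of 13971 genes were called higher and 1234 lower, so 19.6% of calls were higher, where 59.8% were without it. No statement says that the libraries came from separate cultures. With line as a block, the 1 residual degree of freedom per gene is the difference between the 2 lines' changes, at unlike doses and media. Moderation over other genes brought the total to 8.95 degrees of freedom. The p-values therefore measure the change against that difference and the spread borrowed from other genes, and not against replicate cultures.

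As deposited, the direction of single subunits was mostly shared. Higher in both lines were 68 of 80 subunits (85%), against 28.1% of all genes, and lower in both were 5 (6.25%), against 35.3%. These 5 were NDUFS1, NDUFA5, SDHA, SDHC and ATP5F1A. Short transcripts in general were higher in both lines, and the counts depend on that trend. With the length trend of protein-coding genes subtracted, as described further on, 54 of 79 lay above 0 in 22Rv1 and 46 of 80 in PC3. No more than 46 can then be higher in both lines. The same 5 stayed below 0 in both. SDHB, SDHD, NDUFA8, NDUFAB1, NDUFB1, NDUFC2, NDUFS3, NDUFS4, NDUFV2, COX5A, COX7A2, ATP5MC1, ATP5MF and ATP5PO joined them. Others then went opposite ways, such as NDUFA7, at 0.63 in 22Rv1 and -0.072 in PC3. Direction was thus less often shared on this scale than as deposited. Across 79 subunits the changes of the lines had Pearson r 0.45 and Spearman rho 0.43, over genes that share each library and are not independent replicates, and over all 11240 genes measured in both lines the values were 0.52 and 0.50. The change was larger in 22Rv1 for 67 of 79 subunits, with a median gap of 0.38, against 57.3% and 0.08 for all genes. The lines differed in dose, and the difference was not tested, since no residual degrees of freedom remain for it.

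The widest gaps on the side of 22Rv1 belonged to NDUFC2, NDUFA7, NDUFB4 and NDUFB1. NDUFB4 had 274 FPKM with morusin and 140 FPKM without in 22Rv1, and 66.3 and 72.1 FPKM with and without morusin in PC3. NDUFB1 had 35.9 FPKM with morusin and 18.9 FPKM without in 22Rv1, and 8.45 and 9.58 FPKM with and without morusin in PC3. NDUFC2 had 22.1 FPKM with morusin and 18.2 FPKM without in 22Rv1. As deposited, these 3 accessory subunits of complex I were above 0 in 22Rv1 and below 0 in PC3. With the length trend of protein-coding genes subtracted, as described further on, NDUFC2 came to -0.50 and NDUFB1 to -0.0095 in 22Rv1, below 0 in both lines, and NDUFB4 to 0.32 in 22Rv1 and -0.38 in PC3. Gaps on the side of PC3 were smaller. The widest belonged to NDUFS1 and ATP5F1B, followed by SDHD and NDUFA5.

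In these libraries the change of a gene went with the length of its transcript, and subunit mRNAs are short. Among protein-coding genes of 22Rv1 the median change was 0.81 for transcripts under 600 bases, 0.48 up to 1000, 0.19 up to 2000, -0.10 up to 4000 and -0.40 beyond. In PC3 these medians were 0.26, 0.18, 0.08, -0.07 and -0.29. Lengths are medians of a gene's basic transcripts in GENCODE. The subunits had a median length of 750 bases and protein-coding genes 2295 bases. Across the 79 subunits of 22Rv1 the change and log2 length had Pearson r -0.64 and Spearman rho -0.60, and across all genes -0.45 and -0.51. Across the 80 subunits of PC3 the values were -0.06 and -0.09, and across all genes -0.30 and -0.37.

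Set beside protein-coding genes of like length, the subunits under 600 bases had a close median, and those of 600 up to 1000 bases a higher one in both lines. In 22Rv1 the 21 subunits under 600 bases had a median change of 0.83, against 0.81 for protein-coding genes of that length, and the 33 subunits of 600 up to 1000 bases had 0.82, against 0.48. In PC3 the 22 shorter subunits had 0.22, against 0.26, and the 33 longer ones 0.25, against 0.18. When a length trend fitted to protein-coding genes alone was subtracted, the median of the subunits came to 0.12 in 22Rv1, with 54 of 79 above 0 (68.4%), against 44.2% of protein-coding genes. In PC3 it came to 0.029, with 46 of 80 above 0 (57.5%), against 44.6%. The subunits of 600 up to 1000 bases came to 0.22 in 22Rv1 and 0.016 in PC3, against -0.034 and -0.044 for protein-coding genes of that length. Lengths differ within that bin too, with medians of 749 bases over its subunit genes and 825.5 bases over its protein-coding genes. By complex, the 22Rv1 medians on this scale were 0.13 for complex I, -0.38 for complex II, and 0.14 each for complexes III, IV and V. Catalytic subunits came to -0.04 and the others to 0.14. All 4 subunits of complex II lay below 0 on this scale in both lines. This fit was chosen after the data were seen.

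A trend fitted over all genes, non-coding ones included, left more of the change in place, and the smoothing span made little difference. With the span of 0.3 used for all genes, the protein-coding trend gave medians of 0.13 in 22Rv1 and 0.04 in PC3, and with the span of 0.1 the trend over all genes gave 0.31 and 0.10. With the span of 0.3, the trend over all genes gave a median of 0.32 in 22Rv1, and 67 of 79 lay above 0 (84.8%), against 48.1% of all genes, with none at least 2-fold higher, against 2.15%. In PC3 the median was 0.10 and 58 of 80 lay above 0 (72.5%), against 45.1%, with none at least 2-fold higher, against 1.06%. The median gap between the lines was 0.17 on this scale, with 56 of 79 subunits larger in 22Rv1. NDUFA7 came to 0.89 in 22Rv1 with the trend over all genes and to 0.63 with that of protein-coding genes, ATP5MK to 0.85 and 0.60, and NDUFA13 to 0.79 and 0.66. ATP5F1E, whose median transcript is longer, came to 0.77 and 0.73, and ATP5MF, the shortest, to 0.54 and -0.014. SDHC came to -0.60 and -0.99 and NDUFS1 to -0.50 and -0.52. RNA integrity and fragment size were not measured here, and their part in the trend with length was not tested.

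**Figure D3:**
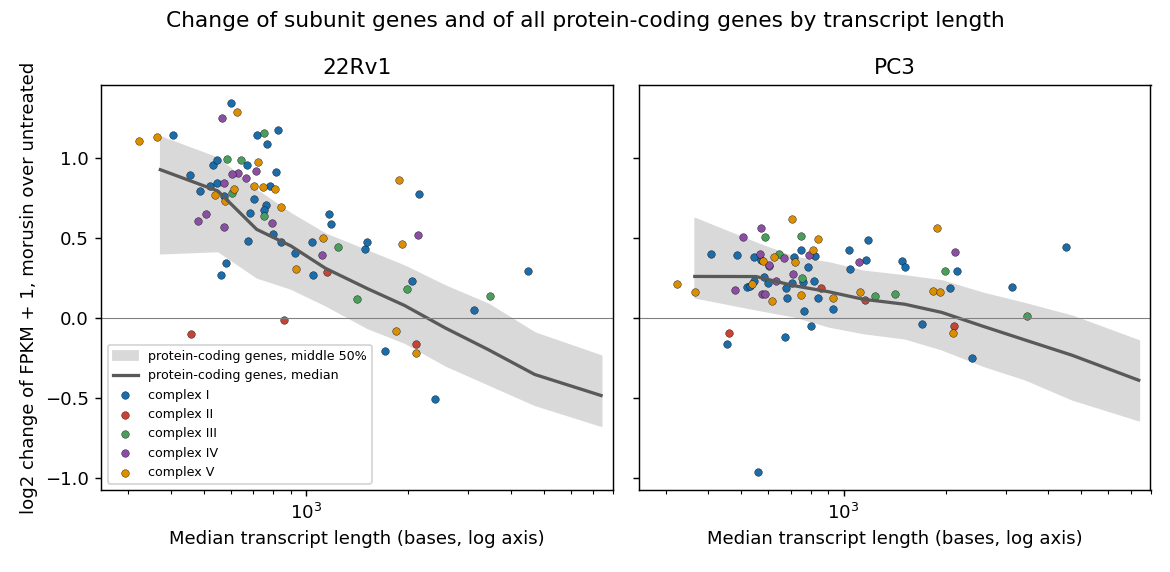
Change of subunit genes (points, by complex) against the median transcript length of the gene in bases on a log axis, in 22Rv1 and PC3. The black line is the median and the grey band the middle range of all protein-coding genes measured in the line, in bins of length. In 22Rv1 protein-coding genes under 600 bases had a median of 0.81 and those of 4000 bases or more -0.40, and the subunits lie on both sides of the line, more of them above it.

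The 13 mRNAs of mitochondrial DNA, which encode the remaining subunits of complexes I, III, IV and V, went the other way. All 13 lay below 0 in both lines, where 35.3% of all genes did, with a median change of -0.88 in 22Rv1 and -0.72 in PC3. Of all genes, 50.6% lay below 0 in 22Rv1 and 55.8% in PC3. They made up 3.13% of FPKM with morusin and 6.33% without in 22Rv1, and 2.53% and 4.43% with and without morusin in PC3. For complex I, MT-ND1 had 341 FPKM with morusin and 867 FPKM without in 22Rv1, and 276 and 762 FPKM with and without morusin in PC3. MT-ND6 had 49.8 FPKM with morusin and 178 FPKM without in 22Rv1, and 27.4 and 177 FPKM with and without morusin in PC3. Of complex IV, MT-CO2 had 932 FPKM with morusin and 2611 FPKM without in 22Rv1, and 960 and 1754 FPKM with and without morusin in PC3. These 3 and MT-ND5 passed the shared limma test at a Benjamini-Hochberg adjusted p of 0.05, all lower, where 0.236% of all genes passed on the lower side. MT-CYB, the mitochondrial subunit of complex III, was at -0.01 in 22Rv1 and -0.55 in PC3. Mitochondrial transcripts are short too, between 207 and 1812 bases, and with the length trend subtracted all 13 stayed below 0 in both lines. Levels of these RNAs depend on what passes poly(A) selection, which the library kit uses.

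**Figure D4:**
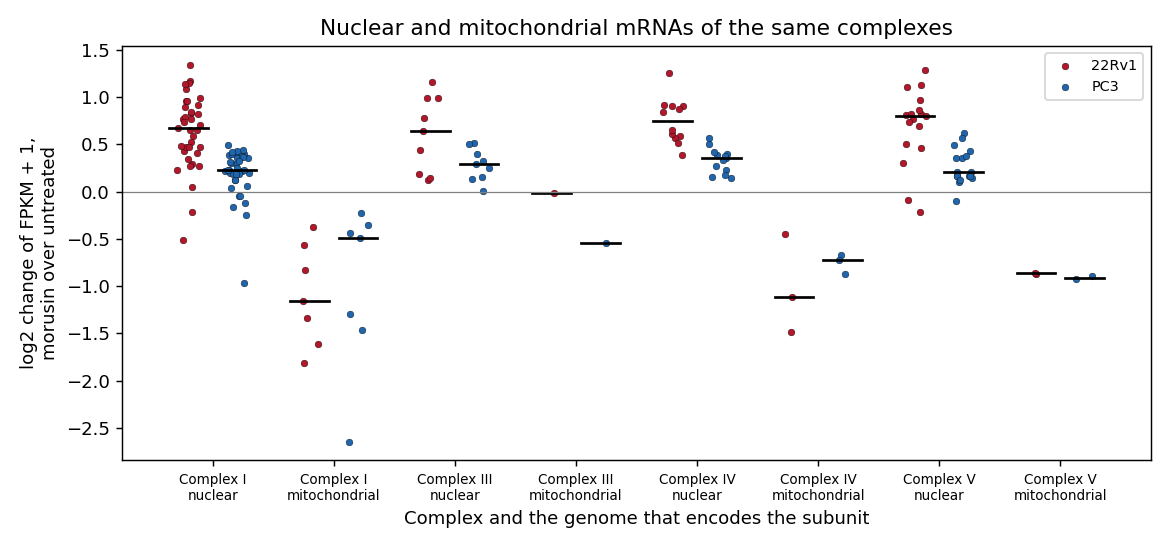
Change of nuclear-encoded and mitochondrially encoded mRNAs of complexes I, III, IV and V, log2 of FPKM + 1 with morusin over untreated, in 22Rv1 (red) and PC3 (blue). Points are genes and black lines are medians over genes. Nuclear medians lie above 0, between 0.21 and 0.80, and every mitochondrial mRNA lies below 0.

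Other nuclear gene groups of the mitochondrion had medians nearer to 0 than the subunits in 22Rv1. In PC3 the citric acid cycle enzymes and the carriers did not, with medians slightly above the 0.23 of the subunits. The 49 assembly factors, which build the complexes and are not part of them, had a median change of 0.17 in 22Rv1 and 0.04 in PC3. Above 0 were 33 of 49 in 22Rv1 and 28 of 49 in PC3, where 49.4% and 44.2% of all genes were. Their median length was 1302.5 bases, and protein-coding genes of 1000 up to 2000 bases had medians of 0.19 and 0.08. With the length trend over all genes subtracted, the assembly factors had medians of 0.04 in 22Rv1 and -0.06 in PC3, with 27 and 22 of 49 above 0. At least 2-fold higher in 22Rv1 were 2 of 49, PET100 and COX17, which serve complex IV assembly and copper delivery, where 3.48% of all genes were. On that scale PET100 and COX17 came to 0.47 and 0.57 in 22Rv1. COX17 had 75.2 FPKM with morusin and 37.0 FPKM without in 22Rv1, and 33.7 and 33.6 FPKM with and without morusin in PC3. The 13 enzymes of the citric acid cycle had a median of -0.05 in 22Rv1 and 0.25 in PC3. Of 9 carriers and related genes, the median was 0.27 and 0.24 in 22Rv1 and PC3, and ATP5IF1, the inhibitor of ATP synthase, had 162 FPKM with morusin and 79.3 FPKM without in 22Rv1, and 30.2 and 30.8 FPKM with and without morusin in PC3. With the length trend over all genes subtracted, the cycle enzymes came to -0.02 in 22Rv1 and 0.20 in PC3, and the carriers to 0.08 and 0.16. The subunits came to 0.32 and 0.10 on that scale. None of the assembly factors, cycle enzymes or carriers passed the shared limma test, while 4, 2 and 1 of them had an unadjusted p below 0.05 on the higher side and 2 assembly factors on the lower side.

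Genes that regulate subunit transcription and mitochondrial gene expression had medians below 0, the lower one in PC3. Of 14 measured, 9 lay below 0 in 22Rv1, where 50.6% of all genes did and 2729 of 4595 protein-coding genes of 2000 up to 4000 bases, with a group median of -0.23. In PC3, 12 of 14 lay below 0, where 55.8% of all genes did and 2723 of 4643 protein-coding genes of that length, with a group median of -0.47. NRF1, a transcription factor of many subunit genes, had 9.43 FPKM with morusin and 10.7 FPKM without in 22Rv1, and 5.08 and 7.97 FPKM with and without morusin in PC3. GABPA, the DNA-binding part of GABP, had 9.34 FPKM with morusin and 13.2 FPKM without in 22Rv1, and 8.33 and 11.4 FPKM with and without morusin in PC3. SP1 had 14.98 FPKM with morusin and 31.3 FPKM without in 22Rv1, a change of -1.02, and 20.0 and 17.6 FPKM with and without morusin in PC3. TWNK, the mitochondrial DNA helicase, had 3.76 FPKM with morusin and 8.29 FPKM without in PC3. PPARGC1A, a coactivator of mitochondrial biogenesis, was at most 0.00388 FPKM in any library. These transcripts are long, with a median of 3523 bases, and with the length trend subtracted the group medians came to -0.13 in 22Rv1 and -0.46 in PC3. None passed the shared limma test, and 3 had an unadjusted p below 0.05 on the lower side.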

How the data were processed

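Total RNA from 4 libraries, 1 per line and treatment, was prepared with an Illumina TruSeq v2 kit and read as pairs, per the labels' protocols. The authors deposited FPKM per Ensembl gene, and the submitters' processing notes name Trimmomatic, HISAT2, StringTie and GRCh38 with no versions. The sources used here give neither the annotation nor whether strand was used. FPKM are relative to each library's total. The members and lists were chosen with earlier results of these data known.

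Symbols came from a gene name table that held 60261 of 60617 IDs. Positions, gene types and lengths came from GENCODE 29, found for 99.6% of 22Rv1 genes and 99.7% of PC3 genes. Changes within a line are log2(FPKM + 1) differences over genes of at least 1 FPKM in 1 library, with no test, and a 2-fold size counts as called. The shared response was fitted with limma, with line as a block because the labels pair each treated library with the untreated one of its line, a mean trend and Benjamini-Hochberg adjustment at 0.05 over all genes, with 1 residual degree of freedom per gene before moderation. Length trends were lowess curves of span 0.3 over all genes, or 0.1 over protein-coding genes, and each was repeated with the other span. Depth was read from steps of low FPKM values in single-exon genes of 600 to 5000 bases, at a tolerance of 1.5%. Per library, 57 to 81 of 1018 to 1104 low values lay at the step. Since few lay there, no whole reads were recovered and no count test was run. Named were the 4 highest and 4 lowest changes per line among subunits of at least 5 FPKM, the 4 widest gaps each way, the 5 highest untreated levels per line, isoform sets, catalytic subunits and up to 4 genes per other list. Other subunits were named after their values were seen. Some genes that meet the rule are not reported here. Alternatives were pseudocounts of 0.1 and 5, no filter and a filter of 5 FPKM, rescaling, centring, no block and no mean trend. The fit used limma 3.58.1 under R 4.3.3, other steps used Python 3.11.15 (pandas 2.3.3, statsmodels 0.14.6, matplotlib 3.10.9), and the fit and trend removal were tested on simulated data.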

Additional observations from a re-analysis of the deposited data

Results flagged for a closer look

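The changes of 3 subunits went opposite ways in the lines by more than 2 counting errors in each line, of 6 subunits that went opposite ways at all. The difference between the lines was not tested, since each line holds 1 morusin-treated and 1 untreated library, and dose and medium differ with the line. NDUFC2 had 22.1 FPKM with morusin and 18.2 FPKM without in 22Rv1, and 12.2 FPKM with morusin and 24.8 FPKM without in PC3, so its change in 22Rv1 minus that in PC3 was 1.23. Its change in 22Rv1, 0.27 as deposited, was 0.080 when rescaled, less than its counting error of 0.13, and -0.19, -0.14 and -0.50 with the length trend over all genes, on coding length and of protein-coding genes removed, so that both lines were then below 0. NDUFB4 had 274 FPKM with morusin and 140 FPKM without in 22Rv1, and 66.3 FPKM with morusin and 72.1 FPKM without in PC3, a difference of 1.08. It stayed on opposite sides of 0 in the lines under every alternative run. ATP5F1B had 688 FPKM with morusin and 729 FPKM without in 22Rv1, and 419 FPKM with morusin and 373 FPKM without in PC3, a difference of -0.25. It too stayed on opposite sides of 0 under every alternative run, at -0.018 in 22Rv1 with the trend on coding length removed.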

How the results depend on the processing

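The median changes stayed above 0 under every alternative run. Of the named subunits, 1 with a change of at least 2-fold reversed: ATP5MF in 22Rv1, at 1.10, came to -0.014 with the length trend of protein-coding genes removed. The 22Rv1 median of 0.69 came to 0.64 with a pseudocount of 5, 0.50 with libraries rescaled to the mean sum, 0.32 with the length trend removed, 0.34 with the trend on principal transcript length removed, 0.36 with that on coding length removed, 0.12 with that of protein-coding genes alone removed (0.13 with the wider span), 0.31 with the all-gene trend at the narrower span, and 0.57 over the 35 subunits without exon overlap. The last 6 were added after seeing the data. The 10 subunits at least 2-fold higher in 22Rv1 came to 3 when rescaled, 0 with the trend on basic (either span) or coding length or that of protein-coding genes (either span) removed, and 1 with that on principal length. The PC3 median of 0.23 came to 0.13 when rescaled and to 0.10, 0.12 and 0.14 with the trend on basic, principal and coding length removed, to 0.10 with the all-gene trend at the narrower span, and to 0.029 (0.040 with the wider span) with that of protein-coding genes removed, where 46 of 80 lay above 0 at either span in place of 71. In PC3 no subunit was at least 2-fold lower, and 1, NDUFC2, was with a pseudocount of 0.1, when rescaled, and with the trend on basic or coding length or that of protein-coding genes removed, at either span. The untreated log2 ratio of 22Rv1 over PC3 of 0.43 came to 0.35 when rescaled.

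In the shared limma test the 82 genes called came to 0 without the block for the paired line, 33 with a pseudocount of 5, 0 with no filter, 169 with a filter of 5 FPKM, 1534 when rescaled, 53 with no mean trend and 33 with the principal length trend removed. Subunits called were 0 in all of these but the rescaled fit, which called 10. Without the block, 0 subunits had an unadjusted p below 0.05. When rescaled, the all-gene median was -0.18 in 22Rv1 and -0.14 in PC3, and the share of higher genes among those past 2-fold to 42.1%, against 77.4% as deposited, in 22Rv1, and to 23.7%, against 31.9%, in PC3. With the length trend removed the share in 22Rv1 was 60.0%. The cause of these shifts was not tested. Leaving out a library leaves no residual degrees of freedom with the block, so that fit would return the other line's change with no test and was not run. Of 851 values of named subunits under an alternative, 492 moved by more than their counting error, 358 did not and 1 is that reversal, and 66 lay on the other side of 0, of which 19 with the length trend of protein-coding genes removed. With 1 library a group, no within-line change has a replicate check.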
